A study of Homo sapiens with 6 samples.

Results

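The RAS-RAF-MEK-ERK cascade was followed in RKO cells, a human colorectal cancer line, through 7 of its core genes: the RAS GTPases NRAS and HRAS, the RAF kinases ARAF and BRAF, the MEK kinases MAP2K1 and MAP2K2, and the ERK kinase MAPK3. The genes were chosen by name as members of the cascade, and their symbols were found in 7 of the 63563 genes of the deposited gene table. The groups were OVER43, RKO cells stably transfected with the cDNA of connexin 43 (Cx43, the gap junction protein encoded by GJA1) in the vector pCDNA3.1, and EV, the RKO control labelled as empty vector, whose genotype label is WT. Each group had 3 poly(A) RNA libraries. Both groups were grown in the same serum-containing medium. Whether the stable cells were a pool or 1 clone, and whether replicate samples were cultured apart, is not in the labels. The p-values therefore compare the groups with the library-to-library spread alone, which may be technical.

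In this cascade, a receptor-driven exchange factor loads RAS with GTP, active RAS recruits RAF kinases to the membrane, RAF phosphorylates the MEK kinases MEK1 and MEK2, and MEK phosphorylates ERK, which acts on kinases and transcription factors. RKO cells are known to carry an activating BRAF mutation, which drives MEK without RAS input; the allele was not measured here. Signalling through the cascade is controlled largely by phosphorylation and protein binding, which RNA levels do not show.

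The introduced gene checked the labels: GJA1 averaged 24.7 ± 1.44 FPKM in OVER43 against 0.348 ± 0.0469 FPKM in EV (SD, n = 3 each; FPKM is fragments per kilobase of transcript, scaled to sequencing depth). On the FPKM scale, the depth estimated from low values was 45700000 to 48500000 fragments per OVER43 library and 41800000 to 51400000 fragments per EV library, with 69.3 to 73.6% of the values used within 0.1 of a whole fragment. The sum of all FPKM values was higher in OVER43 (554170 to 566675) than in EV (500290 to 508909). Of 10 epithelial and colorectal markers, 4 (EPCAM, KRT8, KRT18 and CDX2) were detected well enough to be tested, and the list summed to 199 to 204 FPKM in OVER43 and 156 to 164 FPKM in EV. The tested ones did not move together: the keratin gene KRT18 (148 ± 0.989 FPKM in OVER43 against 79.4 ± 3.68 FPKM in EV; log2 0.89) and the adhesion gene EPCAM (log2 0.67) were called higher. The keratin gene KRT8 (24.6 ± 1.63 FPKM in OVER43 against 58.7 ± 1.92 FPKM in EV; log2 −1.22) was called lower, and CDX2 was not called (log2 −0.28). KRT8 and KRT18 have the same deposited locus, and the part of this in their values was not tested. The other 6, CDH1, VIL1, CDH17, CDX1, LGALS4 and KRT19, stayed under 1 FPKM in every library. All 10 fibroblast and all 6 endothelial markers also stayed under 1 FPKM in every library, as did 7 of 8 leukocyte markers, 4 of them listed at 0 throughout; the exception was the lysosomal gene CD68, at 376 ± 9.38 FPKM in OVER43 against 413 ± 8.11 FPKM in EV (SD, n = 3 each). The part of these differences between the groups in the members' results was not tested, and in bulk RNA fewer cells with a transcript and less of it per cell cannot be told apart.

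**Figure D1:**
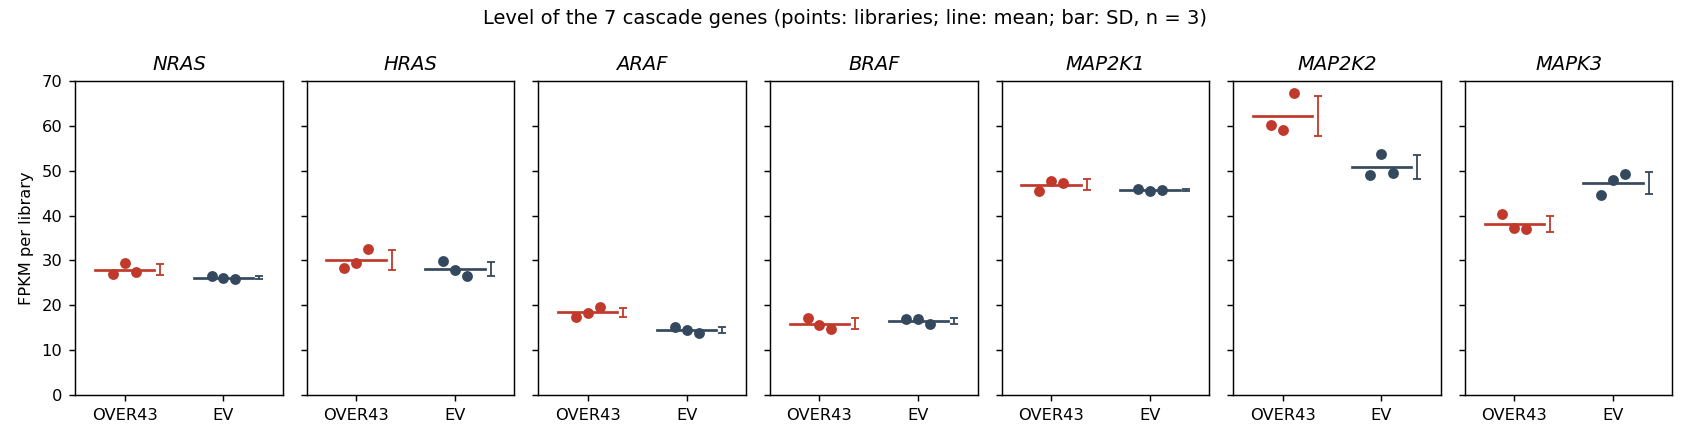
Level of each cascade gene in FPKM (vertical axis) in the 3 OVER43 and the 3 EV libraries, 1 point per library, with the mean and SD of each group. ARAF and MAP2K2 are higher and MAPK3 is lower in all OVER43 libraries than in any EV library, while HRAS, BRAF and MAP2K1 overlap between the groups. NRAS is also higher without overlap, by a narrow margin, but was not called.

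Of the 7 genes, ARAF, MAP2K2 and MAPK3 passed the test between OVER43 and EV, and the 250 bases upstream of their start sites are shown for that reason (RefSeq, GRCh38.p14, 5′ to 3′ on the gene's strand; capitals mark motif matches). They lie at chrX:47560955-47561204 on the plus strand for ARAF, at chr19:4124123-4124372 on the minus strand for MAP2K2, upstream of the outermost of 2 listed starts, and at chr16:30123221-30123470 on the minus strand for MAPK3.
ARAF: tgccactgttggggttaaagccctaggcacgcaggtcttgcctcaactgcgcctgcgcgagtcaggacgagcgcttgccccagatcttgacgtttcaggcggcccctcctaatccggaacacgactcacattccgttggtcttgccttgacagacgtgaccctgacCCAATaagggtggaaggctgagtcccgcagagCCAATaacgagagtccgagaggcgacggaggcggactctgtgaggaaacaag
MAP2K2: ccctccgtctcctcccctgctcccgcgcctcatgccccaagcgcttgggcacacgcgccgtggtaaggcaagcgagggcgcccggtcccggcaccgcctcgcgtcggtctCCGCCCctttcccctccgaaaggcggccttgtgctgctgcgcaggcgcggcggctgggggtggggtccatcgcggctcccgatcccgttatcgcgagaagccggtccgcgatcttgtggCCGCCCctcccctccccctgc
MAPK3: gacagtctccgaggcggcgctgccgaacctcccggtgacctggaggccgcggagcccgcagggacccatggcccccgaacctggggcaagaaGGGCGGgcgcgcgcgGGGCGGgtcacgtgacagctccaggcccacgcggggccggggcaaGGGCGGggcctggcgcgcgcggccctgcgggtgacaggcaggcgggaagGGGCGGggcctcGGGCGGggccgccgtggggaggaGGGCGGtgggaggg
The motifs were searched on both strands. They were the GC box, with the letters GGGCGG, the CCAAT box, spelled by its name, and an extended ETS site, with the letters CCGGAAG. Shorter or other forms of the ETS site were not searched. The MAPK3 window held 6 GC boxes and the MAP2K2 window 2, with no CCAAT box in either, whereas the ARAF window held 2 CCAAT boxes and no GC box. The extended ETS site was not found in these 3 windows. MAPK3 and MAP2K2 were the richer in G and C, at 80.4% and 74.0% with 32 CpG each, against 59.2% and 18 CpG for ARAF. Among the other members, a GC box occurred 2 times upstream of NRAS and 3 times each upstream of HRAS and MAP2K1. The single extended ETS site was that of HRAS. HRAS, BRAF and MAP2K1 had 1 CCAAT box each. Of 35116 RefSeq windows of the same length, 42.6% held a GC box, 32.0% a CCAAT box and 8.52% the extended ETS site. The matches describe the letters only.

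The 2 RAS genes, which encode GTPases that switch between GDP- and GTP-bound forms at the membrane, did not pass the test. NRAS (ENSG00000213281.4; chr1:115247089-115259515, hg19) stood at 27.0, 29.4 and 27.5 FPKM in OVER43 and at 26.5, 26.0 and 25.9 FPKM in EV. Every OVER43 library was above every EV library, by a margin smaller than the spread within OVER43. The log2 fold change, OVER43 over EV on log2(FPKM + 1) as for all fold changes here, was 0.09 (95% interval −0.02 to 0.21; limma adjusted p = 0.151). HRAS (ENSG00000174775.12; chr11:532241-537287) stood at 28.3, 29.4 and 32.6 FPKM in OVER43 and at 29.8, 27.8 and 26.5 FPKM in EV. The HRAS groups overlapped, with 1 EV library above 2 of the OVER43 libraries. Its log2 fold change was 0.10 (95% interval −0.06 to 0.25; limma adjusted p = 0.269).

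Of the RAF kinases, which receive the RAS signal and phosphorylate MEK, ARAF passed the test and BRAF did not. ARAF (ENSG00000078061.8; chrX:47420515-47479252) stood at 17.4, 18.3 and 19.5 FPKM in OVER43 and at 15.0, 14.4 and 13.8 FPKM in EV. All OVER43 libraries were above all EV libraries. ARAF rose, with a log2 fold change of 0.33 ± 0.063 (SE; 95% interval 0.19 to 0.48; limma adjusted p = 0.00322), a larger absolute change than that of 71.4% of the tested genes. It stayed called at 0.28 after TMM, 0.27 after quantile scaling and 0.20 after equal FPKM sums (limma adjusted p = 0.0258). BRAF (ENSG00000157764.8; chr7:140218219-140624564), the member that is mutated in RKO, stood at 17.1, 15.7 and 14.8 FPKM in OVER43 and at 16.9, 17.0 and 15.8 FPKM in EV. The groups overlapped, since the highest of all 6 BRAF values was an OVER43 library. The log2 fold change of BRAF was −0.06 (95% interval −0.22 to 0.09; limma adjusted p = 0.493). It was −0.11 after TMM, −0.12 after quantile scaling and −0.20 after equal FPKM sums (limma adjusted p = 0.0519). The deposited loci of ARAF and BRAF are bundles that also hold detected neighbours, SYN1 and TIMP1 beside ARAF, and NDUFB2, NDUFB2-AS1 and ADCK2 beside BRAF; that of MAP2K1 also holds SNAPC5. No source used here states whether the counting used strand, and the part of these overlapping genes in the values was not tested. Apart from KRT8 and KRT18, the other genes named were not checked for a shared locus. Some of their deposited loci are wide, such as chr17:7465191-7536700 for CD68 and chr5:141689991-142077617 for SPRY4. The part of other genes in those values was not tested.

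Of the genes for MEK1 and MEK2, dual-specificity kinases that activate ERK, MAP2K2 passed the test and MAP2K1 did not. MAP2K1 (ENSG00000169032.5; chr15:66679154-66790151) stood at 45.5, 47.8 and 47.3 FPKM in OVER43 and at 46.0, 45.5 and 45.6 FPKM in EV. The MAP2K1 groups overlapped, with the lowest value in an OVER43 library, and the log2 fold change was 0.03 (95% interval −0.05 to 0.12; limma adjusted p = 0.50). MAP2K2 (ENSG00000126934.9; chr19:4090318-4124126) stood at 60.3, 59.1 and 67.2 FPKM in OVER43 and at 49.1, 53.8 and 49.5 FPKM in EV. No EV library reached the lowest OVER43 library. MAP2K2 rose, with a log2 fold change of 0.29 ± 0.060 (SE; 95% interval 0.15 to 0.42; limma adjusted p = 0.00533), larger than the absolute change of 64.4% of the tested genes. The MAP2K2 call was lost after quantile scaling (0.15, limma adjusted p = 0.0555), after scaling to equal FPKM sums (0.14, limma adjusted p = 0.0594) and without the filter on low values (0.29, limma adjusted p = 0.0600).

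MAPK3 encodes ERK1, the kinase at the end of the cascade, and was the 1 member that fell. MAPK3 (ENSG00000102882.7; chr16:30125425-30134827) stood at 40.3, 37.3 and 37.0 FPKM in OVER43 and at 44.6, 48.0 and 49.3 FPKM in EV. All OVER43 libraries were below all EV libraries. The log2 fold change was −0.30 ± 0.054 (SE; 95% interval −0.43 to −0.18; limma adjusted p = 0.00252), larger in absolute size than that of 66.8% of the tested genes. It was lower under every scaling tried, at −0.35 after TMM, −0.42 after quantile scaling and −0.44 after equal FPKM sums.

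**Figure D2:**
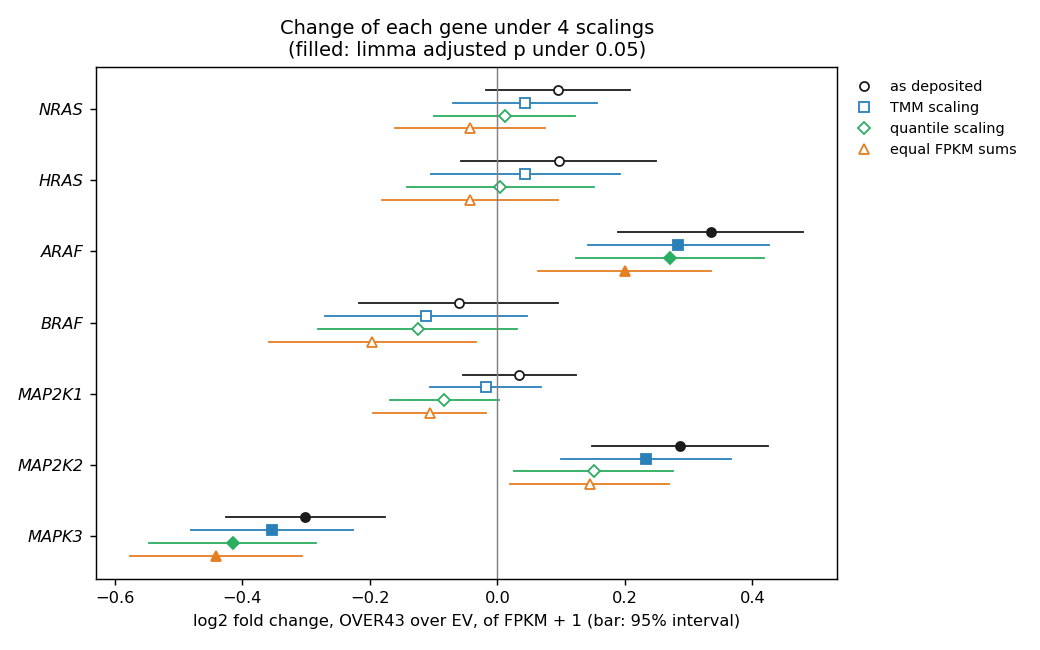
Log2 fold change of OVER43 over EV for each cascade gene (axis: log2 of FPKM + 1), with 95% intervals, as deposited and under the other scalings. ARAF stays above 0 and MAPK3 below 0 in all of them, whereas NRAS, HRAS and MAP2K1 lie near 0 and cross it in at least 1.

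All 7 members passed the filter on low values (1 FPKM or more in 3 or more of the 6 libraries), and 3 of them, 42.9%, were called at an adjusted p under 0.05. Over all genes the share was 45.9% (5600 of 12205 tested), so the number of members called was near the background. That share was 44.2% after TMM scaling, 40.9% after quantile scaling and 44.5% after scaling to equal FPKM sums. Of all tested genes, 28.4% were called higher and 17.5% lower, against 2 and 1 of the 7 members. The groups did not overlap for 4 of the members, and for 56.3% of all tested genes. The median log2 fold change was 0.09 over the members and 0.05 over all tested genes. That median depends on the scaling: it was 0.01 after TMM, 0.02 after quantile scaling and −0.08 after equal FPKM sums, where 34.4% of the calls were higher, against 61.8% as deposited. Relative to the median of each setting, ARAF lay between 0.25 and 0.28 above it, MAP2K2 between 0.13 (quantile scaling) and 0.23 above it, and MAPK3 between 0.35 and 0.43 below it.

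In the authors' deposited table, where fold changes run the other way, with EV on top, and Cuffdiff made the test, 21.3% of 15897 tested genes had a q-value under 0.05. MAP2K2 (log2 −0.29, q = 0.0127) and MAPK3 (log2 0.31, q = 0.0173) were significant in the authors' deposited table. ARAF was not (log2 −0.36, q = 0.417), although its fold change was the larger, in the authors' deposited table. For NRAS, HRAS, BRAF and MAP2K1, the q-values in the authors' deposited table were between 0.470 and 0.902.

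Ordered by level per kilobase, MAP2K2 was the highest of the members in both groups, at 62.2 ± 4.41 FPKM in OVER43 against 50.8 ± 2.59 FPKM in EV (SD, n = 3 each, as for all means here). Its library values overlapped those of MAPK3 in EV. MAP2K1 came second in OVER43 at 46.9 ± 1.20 FPKM, ahead of MAPK3 at 38.2 ± 1.78 FPKM. In EV, MAPK3 at 47.3 ± 2.46 FPKM and MAP2K1 at 45.7 ± 0.259 FPKM could not be ordered, since their library values overlapped. HRAS at 30.1 ± 2.20 FPKM and NRAS at 28.0 ± 1.30 FPKM followed in OVER43, and HRAS at 28.1 ± 1.65 FPKM and NRAS at 26.1 ± 0.331 FPKM in EV. Their library values overlapped in OVER43, while in EV every HRAS value was above every NRAS value, by a margin smaller than either SD at its narrowest. The RAF genes were the lowest in both groups. ARAF was above BRAF in OVER43, at 18.4 ± 1.06 FPKM against 15.9 ± 1.20 FPKM, and below it in EV, at 14.4 ± 0.637 FPKM against 16.6 ± 0.662 FPKM, with no overlap of the pair in either group. HRAS, at the middle of this order by its means, had a higher level than 74.1% of the tested genes.

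Ratios between paralogs in the same library do not change when a library is scaled by 1 common factor, as TMM and equal FPKM sums do; quantile scaling is not of that kind. The ratio of ARAF to BRAF was 1.02, 1.17 and 1.32 in OVER43 and 0.892, 0.845 and 0.871 in EV. ARAF was thus the higher of the pair in all OVER43 libraries and the lower in all EV libraries, with a log2 difference of 0.42 (exact two-sided permutation test, p = 0.1, the smallest that 3 against 3 libraries can give). The ratio of MAP2K1 to MAP2K2 was 0.755, 0.809 and 0.703 in OVER43 and 0.937, 0.846 and 0.922 in EV. MAP2K2 was the higher of the pair in every library, and more so in OVER43, with a log2 difference in the ratio of −0.26 (exact two-sided permutation test, p = 0.1). The ratio of HRAS to NRAS was 1.05, 0.998 and 1.18 in OVER43 and 1.13, 1.07 and 1.03 in EV. Its groups overlapped and both averaged 1.08 (exact two-sided permutation test, p = 1). After Benjamini-Hochberg adjustment over the 3 ratios none could pass 0.05 in this design.

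**Figure D3:**
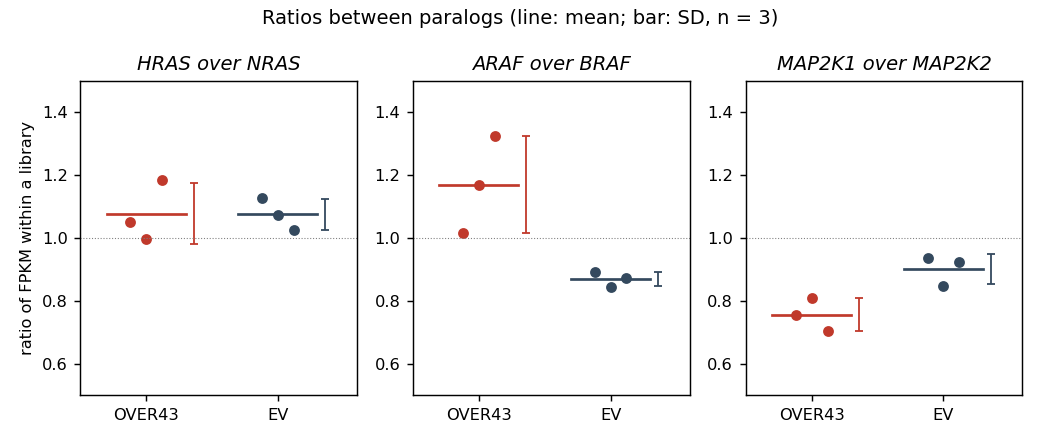
Ratio of the FPKM values of each paralog pair within each library (vertical axis), for OVER43 and EV, with group means. ARAF over BRAF lies above 1 in the 3 OVER43 libraries and below 1 in the 3 EV libraries, MAP2K1 over MAP2K2 is lower in OVER43, and HRAS over NRAS overlaps.

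The isoform table listed 53 spliced transcripts of the 7 genes, and each gene's FPKM equalled the sum of its isoform entries within 0.00092 FPKM. Of these, 19 passed the filter, and 1 was called higher and 1 lower. Of all 30015 tested transcripts 14.5% were called, 9.85% higher and 4.7% lower. ARAF-203 (ENST00000377045.4), the main ARAF transcript, stood at 15.6, 16.2 and 16.3 FPKM in OVER43 and at 11.6, 12.4 and 11.0 FPKM in EV. It rose, with a log2 fold change of 0.43 (limma adjusted p = 0.00783), and the groups did not overlap. ARAF-203 made up 87.2 ± 3.13% of the ARAF signal in OVER43 and 80.8 ± 4.56% in EV, shares that overlapped between the groups. MAPK3-201 (ENST00000263025.4), the main MAPK3 transcript, stood at 25.8, 26.9 and 26.0 FPKM in OVER43 and at 32.0, 33.4 and 31.6 FPKM in EV. It fell, with a log2 fold change of −0.29 (limma adjusted p = 0.00782), at a similar share of the gene's signal in both groups, 68.8 ± 4.13% in OVER43 and 68.4 ± 3.95% in EV. The next MAPK3 transcript, MAPK3-203, averaged 6.23 ± 1.34 FPKM in OVER43 against 8.49 ± 1.86 FPKM in EV, with overlapping groups.

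**Figure D4:**
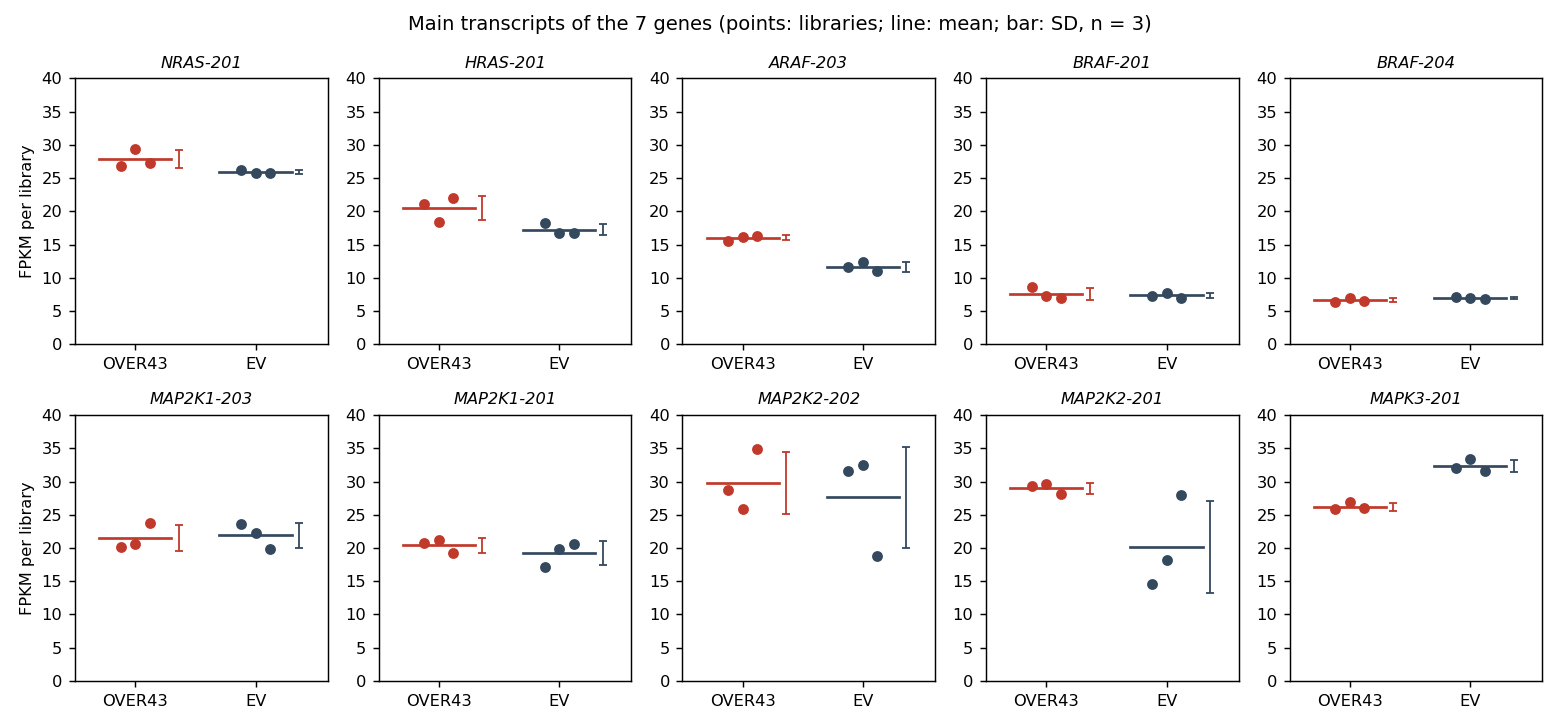
Level in FPKM (axis) of the main transcripts of the cascade genes in each OVER43 and EV library. ARAF-203 is higher and MAPK3-201 lower in all OVER43 libraries, and the MAP2K2 transcripts of EV library 2 stand apart from those of the other EV libraries.

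MAP2K2 was split between a pair of transcripts whose estimates moved against each other in 1 library. MAP2K2-201 (ENST00000262948.5) stood at 29.3, 29.6 and 28.1 FPKM in OVER43 and at 14.5, 18.1 and 27.9 FPKM in EV. MAP2K2-202 (ENST00000394867.4) stood at 28.7, 25.8 and 34.9 FPKM in OVER43 and at 31.6, 32.4 and 18.8 FPKM in EV. EV library 2 was thus the EV library with the highest MAP2K2-201 and the lowest MAP2K2-202, while its gene level of 49.5 FPKM lay between those of the other EV libraries. The log2 fold change of MAP2K2-201 was 0.55 (limma adjusted p = 0.162) with all libraries and 0.80 (limma adjusted p = 0.0120) without EV library 2. That of MAP2K2-202 was 0.14 (limma adjusted p = 0.748) with all libraries and −0.11 without EV library 2.

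NRAS had 1 transcript, NRAS-201, which carried 99.5% of its signal in OVER43 and 99.3% in EV. HRAS-201 was the main HRAS transcript, at 20.5 ± 1.86 FPKM in OVER43 against 17.3 ± 0.799 FPKM in EV, without overlap but short of the test (log2 0.23, limma adjusted p = 0.107). HRAS-205 differed widely between the EV libraries, of which 1 was as high as the OVER43 libraries and the others near 0. It stood at 2.61, 3.55 and 2.51 FPKM in OVER43 and at 0.0024, 0 and 3.30 FPKM in EV. BRAF was carried by BRAF-201, at 7.61 ± 0.900 FPKM in OVER43 against 7.33 ± 0.407 FPKM in EV, and by BRAF-204, at 6.63 ± 0.315 FPKM in OVER43 against 6.99 ± 0.156 FPKM in EV. Both BRAF transcripts overlapped between the groups. The third BRAF transcript, BRAF-202, was lower in each OVER43 library than in any EV library, at 1.33 ± 0.387 FPKM in OVER43 against 2.04 ± 0.203 FPKM in EV, but did not pass the test (limma adjusted p = 0.206). MAP2K1 was divided between MAP2K1-203, at 21.6 ± 1.94 FPKM in OVER43 against 21.9 ± 1.91 FPKM in EV, and MAP2K1-201, at 20.4 ± 1.10 FPKM in OVER43 against 19.2 ± 1.78 FPKM in EV, again with overlapping groups. Estimated fragments per library ranged from 4584 to 5859 for NRAS-201, from 1126 to 1493 for MAP2K1-203 and from 488 to 712 for HRAS-201, which sets a counting error of up to 1.48%, 2.98% and 4.53%; the assignment of shared reads to isoforms adds to it.

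Pseudogenes of the kinase genes took almost no signal: ARAFP1, ARAFP2 and ARAFP3 were listed at 0 in every library, BRAFP1 reached at most 0.0664 FPKM and MAP2K1P1 at most 0.0596 FPKM. Genes within 5 Mb of each member were described by their median, without a test. The called members were picked by their change, so a neighbour median nearer 0 does not bear on a shift of the region. The 19 tested neighbours of ARAF had a median log2 fold change of 0.01, with 4 called higher and 5 lower. The 177 tested neighbours of MAP2K2 had a median of 0.08, with 52 called higher and 27 lower. For the 97 tested neighbours of MAPK3 the median was 0.12, with 33 called higher and 10 lower. Over all tested genes, the median was 0.05, with 28.4% called higher and 17.5% lower. For the other members the median over the neighbours was between 0.02 and 0.06. The tested gene with the pattern most like that of ARAF over the 6 libraries was VPS37C, a subunit of the ESCRT-I complex, at 9.34 ± 0.493 FPKM in OVER43 against 7.32 ± 0.387 FPKM in EV (root mean square difference 0.0194 in centred log2). For MAP2K2 it was ZWINT, a kinetochore protein, at 53.7 ± 3.77 FPKM in OVER43 against 44.0 ± 1.64 FPKM in EV (0.0172). For MAPK3 it was GOLGA2, a Golgi matrix protein, at 40.9 ± 1.36 FPKM in OVER43 against 51.8 ± 1.55 FPKM in EV (0.0289).

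Of 22 listed exchange factors, GTPase-activating proteins, adaptors and other regulators of RAS or RAP, 18 were tested, 4 were called higher and 4 lower. The share called, 44.4%, was near the 45.9% of all tested genes. RASA1, which speeds GTP hydrolysis by RAS, averaged 48.2 ± 1.34 FPKM in OVER43 against 25.7 ± 1.03 FPKM in EV, a log2 fold change of 0.88 (limma adjusted p = 7.96e-06). RASAL1, of the same activity, rose by 1.20 on the log2 scale, at 6.31 ± 1.25 FPKM in OVER43 against 2.17 ± 0.476 FPKM in EV. GAB1, a docking adaptor below growth factor receptors, fell by 0.63 on the log2 scale, at 1.17 ± 0.375 FPKM in OVER43 against 2.34 ± 0.121 FPKM in EV. RAPGEF2, an exchange factor for RAP GTPases, averaged 11.9 ± 1.49 FPKM in OVER43 against 16.4 ± 1.05 FPKM in EV (log2 −0.44). The calls of GAB1 (limma adjusted p = 0.0501) and RAPGEF2 (0.0584) were lost without the filter on low values, and 2 genes of the list were then called lower. The pseudocount of 1 understates the change of low genes: with 0.1, the log2 fold change of GAB1 was −0.98.

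RAS proteins need a lipid anchor. Of 13 listed genes of RAS lipid processing, all tested, 4 were called higher and 3 lower. The share called was 53.8%, beside 45.9% of all tested genes. FNTB, the beta subunit of farnesyltransferase, rose to 8.19 ± 0.491 FPKM in OVER43, against 5.25 ± 0.711 FPKM in EV (log2 0.56). ICMT, which methylates the farnesylated end, averaged 46.1 ± 1.18 FPKM in OVER43 against 36.2 ± 0.149 FPKM in EV (log2 0.34). PDE6D, a carrier of prenylated proteins, fell by 0.79 on the log2 scale, at 5.90 ± 0.867 FPKM in OVER43 against 10.9 ± 1.27 FPKM in EV. ZDHHC9, a RAS palmitoyltransferase, averaged 16.2 ± 0.650 FPKM in OVER43 against 20.1 ± 0.467 FPKM in EV (log2 −0.30).

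Of 28 listed scaffolds and RAF regulators, 25 were tested, of which 16 were called higher and 2 lower, 72% in all, beside 45.9% of all tested genes. Their median log2 fold change was 0.19, beside 0.05 over all tested genes and 0.08 over genes that passed a filter of 5 FPKM. Of the 9249 genes that passed that filter, 4870 were called, 3278 higher and 1592 lower, so calls were more common among them than over all tested genes. The count was 16 higher and 3 lower after TMM, 10 and 3 after quantile scaling, and 9 and 5 after equal FPKM sums. PEA15, a cytoplasmic anchor of ERK, averaged 152 ± 4.88 FPKM in OVER43 against 100.5 ± 6.62 FPKM in EV (log2 0.59, limma adjusted p = 6.89e-05). LAMTOR1, which tethers the MEK1-binding LAMTOR complex to late endosomes, averaged 70.2 ± 2.20 FPKM in OVER43 against 51.2 ± 1.30 FPKM in EV (log2 0.45, limma adjusted p = 8.27e-05). The lower genes were SHOC2, which helps to release RAF from inhibition, with a log2 fold change of −0.16 (limma adjusted p = 0.0446), and MAPKAP1, with one of −0.13 (0.0142). The SHOC2 call was lost when any 1 library was left out, with log2 fold changes of −0.19 to −0.14, and with a block for the library number (limma adjusted p = 0.0661). The MAPKAP1 call was lost without EV library 1 (limma adjusted p = 0.0548). Without the filter both were lost (0.0854 for SHOC2 and 0.0747 for MAPKAP1), which left 0 genes of the list called lower. After equal FPKM sums the log2 fold change was −0.30 for SHOC2 and −0.28 for MAPKAP1.

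Below ERK, 14 of 16 listed substrate kinases and nuclear targets were tested. Of these, 6 were called higher and 2 lower (57.1%, beside 45.9% of all tested genes). The count was 3 and 2 after quantile scaling and 2 and 3 after equal FPKM sums. Without the filter on low values, 3 were called higher. RPS6KA4 and RPS6KA5, which encode the paired kinases MSK2 and MSK1, went apart. RPS6KA4 averaged 45.0 ± 2.98 FPKM in OVER43 against 33.4 ± 2.09 FPKM in EV (log2 0.42, limma adjusted p = 0.00112). RPS6KA5 averaged 1.22 ± 0.0365 FPKM in OVER43 against 2.05 ± 0.0940 FPKM in EV (log2 −0.46, limma adjusted p = 0.00690; −0.71 with a pseudocount of 0.1). CIC, a repressor that ERK signalling inactivates, averaged 16.2 ± 0.657 FPKM in OVER43 against 21.0 ± 0.353 FPKM in EV (log2 −0.35). ELK4, a ternary complex factor, averaged 15.9 ± 1.48 FPKM in OVER43 against 11.9 ± 1.05 FPKM in EV (log2 0.39), a call lost without the filter (limma adjusted p = 0.0662).

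Another 10 genes whose transcription is known to follow ERK activity were listed, and the 8 tested of them did not move one way. Of these, 3 were called higher and 2 lower (62.5%, beside 45.9% of all tested genes), with a median log2 fold change of −0.05. The count was 3 and 3 after TMM, 1 and 3 after quantile scaling, and 1 and 5 after equal FPKM sums. DUSP6, the cytoplasmic ERK phosphatase, stood at 20.1, 23.2 and 21.8 FPKM in OVER43 and at 72.0, 72.6 and 75.4 FPKM in EV. It fell by 1.71 on the log2 scale (limma adjusted p = 5.12e-07), with no overlap. ETV5, an ETS factor, averaged 23.6 ± 1.31 FPKM in OVER43 against 28.1 ± 0.775 FPKM in EV (log2 −0.24, limma adjusted p = 0.00795). CCND1, which encodes cyclin D1, averaged 85.4 ± 0.918 FPKM in OVER43 against 65.2 ± 1.89 FPKM in EV (log2 0.38, limma adjusted p = 0.000100). EPHA2, an ephrin receptor, averaged 74.9 ± 1.04 FPKM in OVER43 against 62.9 ± 2.44 FPKM in EV (log2 0.25), a call lost after quantile scaling (limma adjusted p = 0.0596) and equal FPKM sums (0.0503). SPRY4, a feedback inhibitor of RAS activation, averaged 161 ± 2.09 FPKM in OVER43 against 144 ± 3.27 FPKM in EV (log2 0.16), which became −0.02 after quantile scaling and lost its call after equal FPKM sums. Its relative SPRY2 had a log2 fold change of −0.14 (limma adjusted p = 0.159) and PHLDA1 one of −0.10 (0.150); PHLDA1 was called lower under the 3 other scalings and SPRY2 after equal FPKM sums. ETV4 averaged 30.6 FPKM in each group, and was called lower after equal FPKM sums (log2 −0.14, limma adjusted p = 0.0485). DUSP4, at 0.161 FPKM in OVER43 against 0.507 FPKM in EV, and EPHA4, at 0.0317 FPKM in OVER43 against 0.0862 FPKM in EV, were below the filter.

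**Figure D5:**
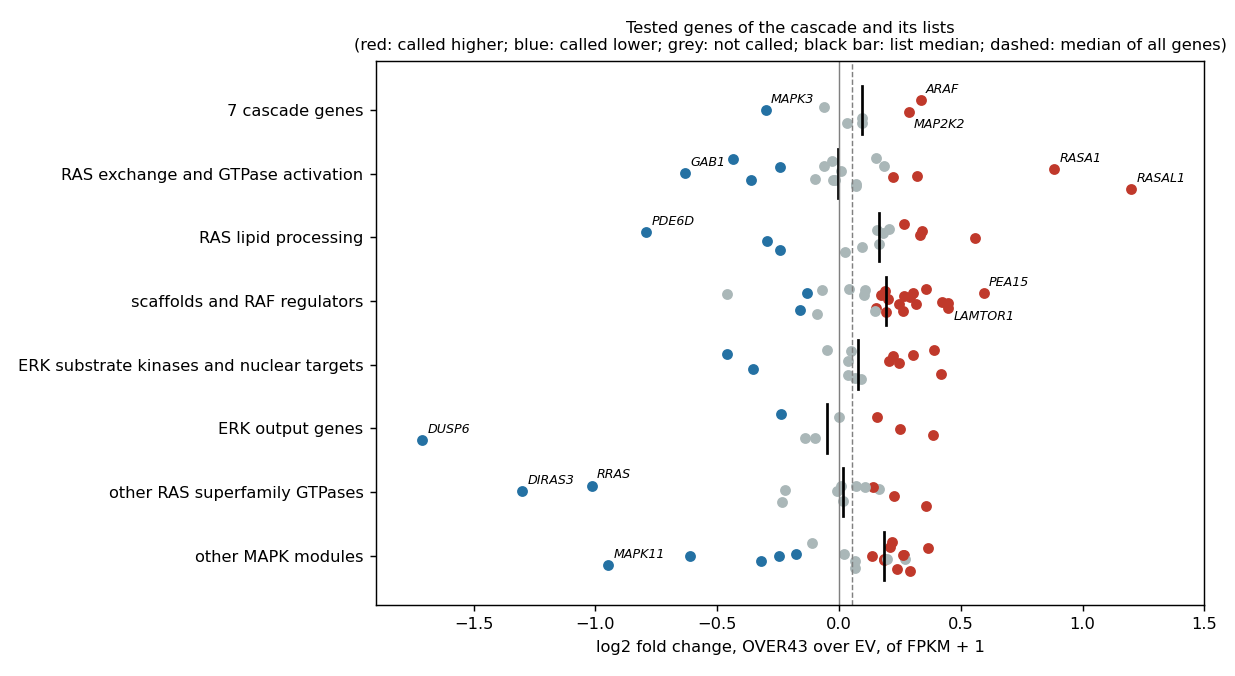
Log2 fold change of OVER43 over EV (axis) of the tested genes of each cascade list, 1 point per gene, with called genes marked and the median of each list drawn. DUSP6 lies furthest below 0. The medians of the scaffolds (0.19), other MAPK modules (0.18) and RAS lipid processing (0.16) lie furthest above the 0.05 of all tested genes.

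Among 20 other RAS superfamily GTPases, 13 were tested and 3 were called higher and 2 lower (38.5%, beside 45.9% of all tested genes). The count was 1 and 2 after TMM, 2 and 2 after quantile scaling, and 1 and 4 after equal FPKM sums. RRAS, a RAS relative linked to integrin activation, averaged 6.61 ± 0.771 FPKM in OVER43 against 14.3 ± 1.10 FPKM in EV (log2 −1.02, limma adjusted p = 9.4e-05). DIRAS3, an imprinted RAS-like growth inhibitor, averaged 1.17 ± 0.163 FPKM in OVER43 against 4.37 ± 0.723 FPKM in EV (log2 −1.30, limma adjusted p = 0.000135). RAP1B, a RAP GTPase, averaged 156 ± 1.96 FPKM in OVER43 against 122 ± 2.37 FPKM in EV (log2 0.36), and RAP2B had a log2 fold change of 0.23 (limma adjusted p = 0.0209), a call lost after TMM, after equal FPKM sums, and without OVER43 library 0, EV library 0 or EV library 1. RRAS2 was listed at 0 in both groups.

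The list of other MAP kinase genes held mainly those of the JNK, p38 and ERK5 modules. It also held MAPK4, MAPK6, MAPK15, MOS and MAP3K8. Of the 26 listed genes, 21 were tested, and 10 were called higher and 5 lower. The share called was 71.4%, beside 45.9% of all tested genes. The count was 7 and 5 after TMM, 5 and 4 after quantile scaling, and 1 and 5 after equal FPKM sums. Without EV library 1, 3 were called lower. MAPK11 (p38 beta) averaged 4.09 ± 0.467 FPKM in OVER43 against 8.80 ± 0.483 FPKM in EV (log2 −0.95, limma adjusted p = 0.00012). MAPK12 (p38 gamma) averaged 30.4 ± 1.72 FPKM in OVER43 against 23.3 ± 0.773 FPKM in EV (log2 0.37, limma adjusted p = 0.00108). MAP3K5 (ASK1), a stress-activated kinase upstream of JNK and p38, fell by 0.61 on the log2 scale, at 2.59 ± 0.0732 FPKM in OVER43 against 4.49 ± 0.420 FPKM in EV. MAPK8 (JNK1) averaged 65.3 ± 5.14 FPKM in OVER43 against 53.1 ± 2.93 FPKM in EV (log2 0.29, limma adjusted p = 0.00688), a call lost after quantile scaling, after equal FPKM sums and without the filter.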

How the data were processed

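Poly(A) RNA of 6 RKO samples, 3 OVER43 and 3 EV, was made into TruSeq RNA libraries, as the labels' protocols say. The authors deposited a gene table and an isoform table of FPKM values per library, made with Cuffdiff, per the submitters' processing notes. No source used here names the aligner or the annotation. Per the file headers, the authors' log2 fold change is EV over OVER43, their test statistic is a score, and their deposited p-values and q-values are Cuffdiff's. The notes name hg38, but for 5 of 7 members the GRCh38 gene does not overlap the deposited locus, and coordinates are given as hg19. Cuffdiff failed or gave no estimate for 19 genes, which were left out.

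Genes that reached 1 FPKM in 3 or more libraries were tested across the table with limma 3.58.1 (R 4.3.3; trend, robust) on log2(FPKM + 1), two-sided, with a threshold of 0.05 on the Benjamini-Hochberg adjusted p. The isoform table was treated likewise. The test was checked on simulated data with independent noise, few changed genes and no difference in scale between the groups. That check does not bear on the scaling of these data. The 52414 isoform entries that carry a gene ID span whole genes and were kept apart. Column names number the libraries 0 to 2 and the labels 1 to 3, so a library is named by its column. Fragment numbers, taken back from FPKM and transcript length, cover counting error only.

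Alternatives were other scalings (TMM, quantile, equal FPKM sums), filters, a pseudocount of 0.1, a block for the library number, and leaving out each library. The genes named are the members, GJA1, all listed ERK output genes, the 2 highest and 2 lowest called genes of each list, and the tested gene of at least 5 FPKM most like each called member. Some cascade genes are left out of the text. Members and lists were chosen with earlier results of these data known.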

Additional observations from a re-analysis of the deposited data

How the results depend on the processing

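ARAF and MAPK3 kept their direction and their calls under every alternative, and MAP2K2 lost its call in 3 of them: quantile scaling (log2 0.15), equal FPKM sums (0.14) and no filter (0.29). Equal FPKM sums turned NRAS to −0.044 and HRAS to −0.043. MAP2K1 turned to −0.019 with TMM, −0.083 with quantile scaling and −0.11 with equal FPKM sums. Of all genes, 1870 were called higher and 3567 lower with equal FPKM sums. Without the filter, 1744 transcripts were called. Leaving out 1 library at a time gave 2486 to 3505 called transcripts and 4737 to 5087 called genes, and a log2 difference of −0.069 to 0.055 in the HRAS to NRAS ratio, below 0 without OVER43 library 2, EV library 1 (−0.00041) or EV library 2 (−0.032). The causes were not tested.

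The library numbers showed no pairing: deviations of same-numbered libraries correlated at 0.0166, −0.0909 and 0.0285. With a replicate block, 5316 genes and 2139 transcripts were called, and the 3 members stayed called.

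SPRY4 turned to −0.019 with quantile scaling. ETV4 turned to −0.051 with TMM, −0.094 with quantile scaling and −0.14 with equal FPKM sums, where it was called lower, and ranged over −0.019 to 0.025 without 1 library. Among main transcripts, NRAS-201 turned to −0.034 (quantile) and −0.043 (equal sums), BRAF-201 to −0.018 (TMM), −0.031 (quantile) and −0.085 (equal sums), MAP2K1-201 to −0.037 (quantile) and −0.053 (equal sums), and MAP2K2-202 to −0.0046 (equal sums). Without 1 library, BRAF-201 ranged over −0.040 to 0.10, MAP2K1-203 over −0.092 to 0.030 and MAP2K2-202 over −0.11 to 0.27. Over the other single genes and transcripts named, 24 values lost a call and 6 gained one, SHOC2 accounting for 8 of the losses and RAP2B for 5. Another 24 list counts moved by over 1.5 times. FPKM holds no measure of total RNA per cell, so a shift common to all genes was not measured.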
